A study of Mus musculus with 4 samples.

Results

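The levels of 47 genes that drive, carry out or brake the cell division cycle were examined in RNA of cells sorted from the mouse spinal cord. The genes were chosen by name, as rows of the deposited count table whose gene symbol equals a listed cyclin, cyclin-dependent kinase (CDK), replication, mitosis or CDK inhibitor gene, and all 47 were found among the 42458 rows. Each of 4 wild-type C57BL6 mice gave 1 library made from 50 cells. The mice had received AAV2-CAG-tdT, an adeno-associated virus that carries the red fluorescent protein tdTomato behind CAG, a promoter active in most cell types, into a brain ventricle. Live tdTomato-positive cells were then sorted from dissociated tissue around the central canal. The sort aimed at CSF-cNs, neurons that line the canal and contact the cerebrospinal fluid, and an uninjected C57BL6 preparation served only to set the gate. All libraries form 1 group without untreated or other control libraries, so each gene has a level and a spread between mice, and there is no contrast between conditions. The ages of the animals were not given in the sources used here.

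In the division cycle, D-type cyclins with CDK4 and CDK6 begin to phosphorylate the retinoblastoma protein, which releases E2F factors and lets a cell pass from G1 into S phase. The CDK inhibitors of the Cip/Kip and INK4 families oppose this step, MCM proteins and their loaders license the origins of replication, and cyclin B with CDK1 drives mitosis. Mature neurons, oligodendrocytes and resting microglia are largely outside the cycle, while ependymal cells of the adult central canal can divide, and the series title concerns their proliferation.

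The libraries differed in cell content. Values of 4 libraries are given from mouse 1 to mouse 4. Depth was 83007030 to 115479640 counts per library, and CPM denotes counts normalised to library depth after TMM scaling, a correction for library composition. A gene was taken as found in a library above a floor of 3 counts, which is 0.0278 to 0.0348 CPM. Libraries with no count of a gene were kept at 0 CPM, with an upper two-sided 95% Clopper-Pearson limit of 0.0342 to 0.0428 CPM. The floor and all intervals cover counting error only, because the reads carry no molecular identifiers. A list of 10 markers of microglia, the resident macrophages of the nervous system, summed to 36392 to 62016 CPM, with P2ry12 at 5348 CPM or more in each library, although the labels name CSF-cNs as the enriched cell type. The 9 CSF-cN markers summed to 20.3, 12.9, 941 and 846 CPM, and their defining gene Pkd2l1 was at 17.9, 0.193, 664 and 690 CPM. The 10 oligodendrocyte markers summed to 14827, 236, 19055 and 454 CPM, and the 10 ependymal markers to 0.00926, 0.642, 13.7 and 83.9 CPM. The transgene row AAV2-CAG-tdT, the label of the sort, held 5, 58, 13533 and 153379 counts, and mice 1 and 2 were low. CSF-cN and ependymal sums were likewise higher in mice 3 and 4 than in mice 1 and 2, and the oligodendrocyte sum was high in mice 1 and 3. Of the ependymal markers, 0, 3, 5 and 10 were above 3 counts, and their sum was small beside that of microglia in every library. In such bulk libraries, fewer cells of a type and less RNA per cell cannot be told apart.

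The promoters of the genes are shown first, because the genes of the last phases share a sequence arrangement that those of the earlier phases mostly lack. Genes of G2 and mitosis are known to carry a CHR element (TTTGAA, with TTTAAA as a variant), bound by the MuvB complex, near CCAAT boxes bound by NF-Y. RefSeq promoter windows of build GRCm38.p6, from 250 bases before to 50 after a gene's start, were found for 38 of the 47 genes. The first listed window of each gene was searched on both strands. TTTAAA and CACGTG read the same on both strands, and a CHR and a CCAAT box can share end bases. A CHR was found in 14 of 15 windows of G2/M and mitosis genes, in 6 of 23 windows of the other cell cycle genes, and in 27.8% of 27025 genes with a window. CCAAT was found in 14 of 15, in 12 of 23 and in 37.9% of these windows. The 200 bases before the start are printed from 5′ to 3′, with CHR and CCAAT letters on either strand in capitals, for Ccnb1 (chr13:100786487-100786686, minus strand), Cdk1 (chr10:69352913-69353112, minus), Cdc20 (chr4:118437344-118437543, minus), Mki67 (chr7:135716380-135716579, minus) and Top2a (chr11:99024190-99024389, minus).
Ccnb1: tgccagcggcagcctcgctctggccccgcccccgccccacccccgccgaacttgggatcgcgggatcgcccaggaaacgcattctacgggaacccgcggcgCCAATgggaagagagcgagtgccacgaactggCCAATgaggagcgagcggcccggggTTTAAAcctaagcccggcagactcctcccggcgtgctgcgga
Cdk1: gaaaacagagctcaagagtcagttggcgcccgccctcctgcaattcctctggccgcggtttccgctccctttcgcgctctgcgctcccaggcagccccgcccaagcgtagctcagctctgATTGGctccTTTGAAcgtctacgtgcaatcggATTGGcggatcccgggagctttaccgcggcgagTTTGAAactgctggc
Cdc20: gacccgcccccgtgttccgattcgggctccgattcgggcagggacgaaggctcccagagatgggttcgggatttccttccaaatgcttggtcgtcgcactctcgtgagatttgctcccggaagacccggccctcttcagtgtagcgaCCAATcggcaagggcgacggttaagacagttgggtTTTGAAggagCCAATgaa
Mki67: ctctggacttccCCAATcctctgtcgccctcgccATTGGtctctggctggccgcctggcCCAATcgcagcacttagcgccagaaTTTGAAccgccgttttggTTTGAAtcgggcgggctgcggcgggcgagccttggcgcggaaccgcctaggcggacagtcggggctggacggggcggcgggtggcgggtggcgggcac
Top2a: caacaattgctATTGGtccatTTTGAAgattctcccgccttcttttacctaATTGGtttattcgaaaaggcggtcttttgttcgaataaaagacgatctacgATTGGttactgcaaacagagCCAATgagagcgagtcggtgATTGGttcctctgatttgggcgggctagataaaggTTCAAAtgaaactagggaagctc
The G1 kinase gene Cdk4 (chr10:127063335-127063534, plus strand) serves as the contrast, with the E-box CACGTG, a palindrome bound by MYC, in capitals.
Cdk4: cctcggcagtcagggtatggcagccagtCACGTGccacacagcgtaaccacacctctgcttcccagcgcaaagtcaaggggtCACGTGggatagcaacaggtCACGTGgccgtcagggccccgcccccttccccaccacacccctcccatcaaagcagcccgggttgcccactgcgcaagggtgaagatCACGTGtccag
The printed Cdk4 stretch holds 4 E-boxes and its window neither CHR nor CCAAT. An E-box occurred in 3 of the 38 windows, those of Cdk4, Cdk6 and Tyms, and in 7.24% of all windows. The E2F motif GGCGGGAA was in 3 of the 38 windows and in 2.24% of all. By level, a CHR was in 12 of 16 windows of genes found in no library or in 1, of which 11 are G2/M and mitosis genes. It was in 0 of 8 windows of genes called above 10 CPM in the test below, none of which is a G2/M or mitosis gene. A match describes letters only, and phase and level cannot be told apart in these tallies.

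**Figure D1:**
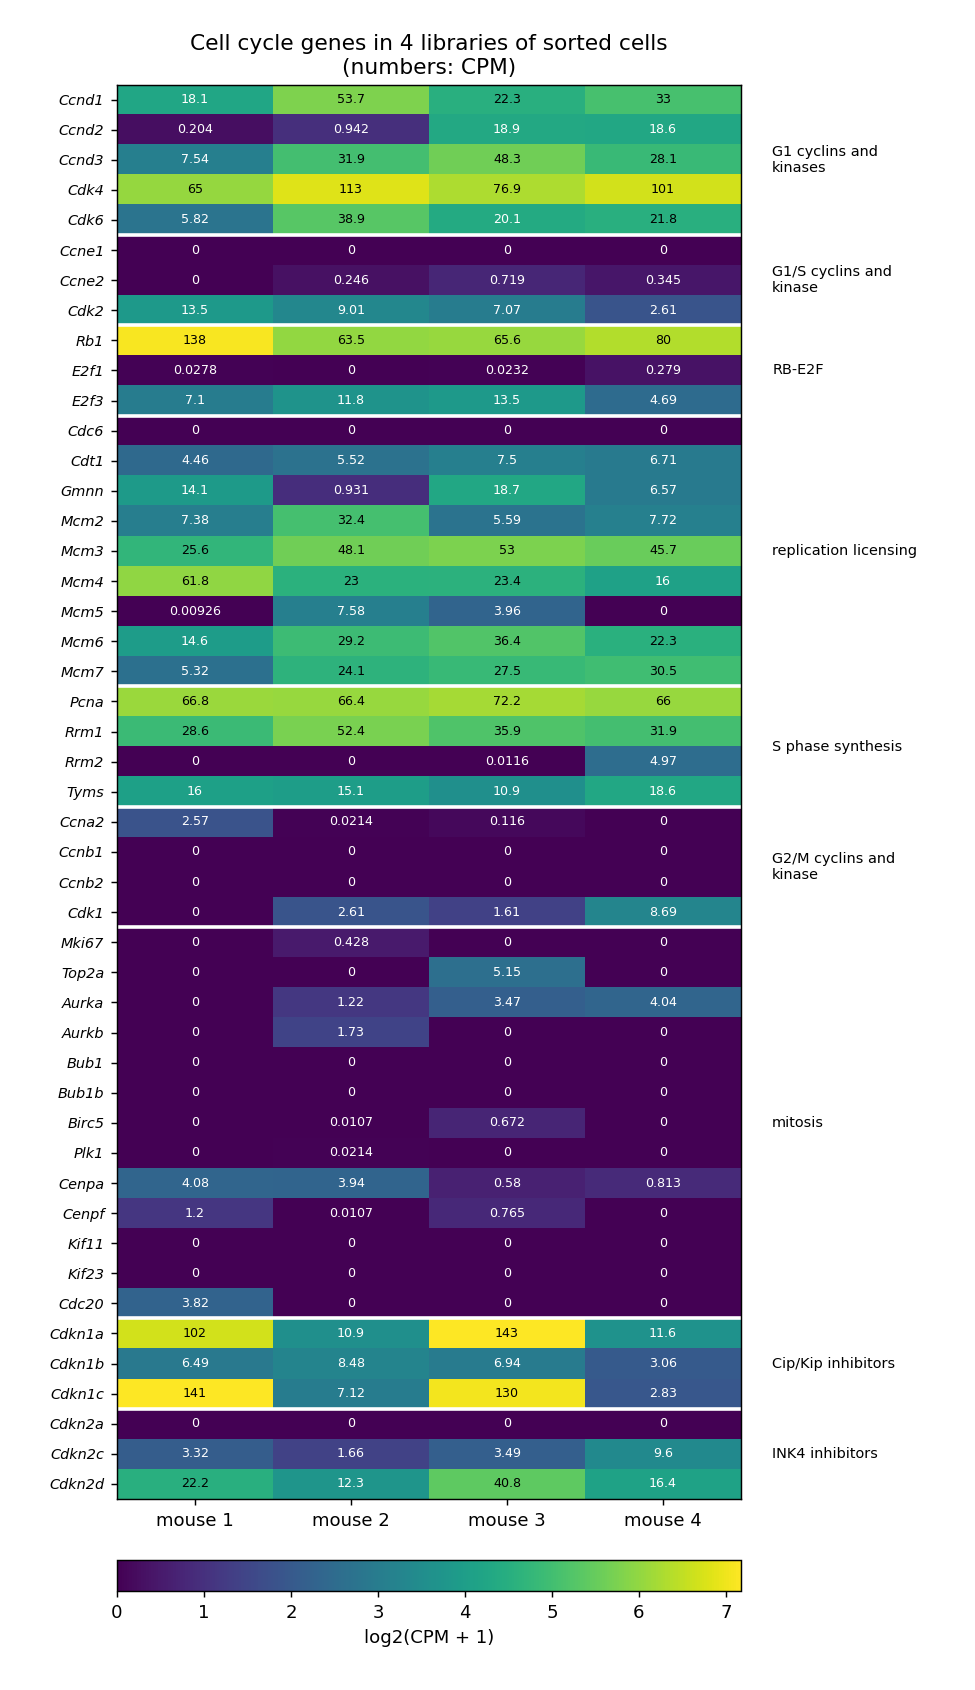
Levels of the 47 cell cycle genes (rows, grouped by role) in the libraries of mice 1 to 4 (columns), with the colour giving log2(CPM + 1) and each number the CPM. G1 and replication genes fill the upper part, most G2/M and mitosis rows are at or near 0, and Cdkn1a and Cdkn1c are high in mice 1 and 3.

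Most genes of G1 and of DNA replication were present in every library, while those of G2 and mitosis were missing or sparse. Of the latter only Cenpa was above 3 counts in every library, at a mean of 2.35 CPM. Cdk1 had a higher mean, 3.23 CPM, but no count in mouse 1. Summed over the 13 mitosis genes the level was 9.11, 7.36, 10.6 and 4.86 CPM, and over the 4 G2/M cyclin and kinase genes 2.57, 2.63, 1.73 and 8.69 CPM. The 5 genes of the cyclin D and CDK4/6 group summed to 96.7, 239, 186 and 202 CPM. Of the 47 genes, 24 had more than 3 counts in every library, all of them among the 37 tested below, against 62.6% of all tested genes. A further 7 had more than 3 counts in 1 library only, against 14.1%, and 10 in none. A level of at least 10 CPM in every library was found for 11, against 36.5%. Of the 10 found in no library, 9 had no count at all, namely Ccne1, Cdc6, Ccnb1, Ccnb2, Bub1, Bub1b, Kif11, Kif23 and Cdkn2a, and Plk1 had 2 counts in all. Among all 42458 rows, 50.2% had no count in any library.

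Genes whose counts summed to 10 or more were tested for a level other than 10 CPM with edgeR's quasi-likelihood test. Adjusted p-values follow Benjamini and Hochberg and cover all 18522 such genes. The SE printed with an edgeR log2 level was derived from the F statistic of the test, so it depends on the level tested against. Of the 37 cell cycle genes tested, 12 were called above 10 CPM, against 36.7% of all tested genes, so that the share of 32.4% was close to the background. These were Ccnd1, Ccnd3, Cdk4, Rb1, Mcm3, Mcm4, Mcm6, Pcna, Rrm1, Cdkn1a, Cdkn1c and Cdkn2d. None of the 10 tested G2/M and mitosis genes was among them. edgeR called 0 of the 37 below 10 CPM, 1 at an unadjusted p under 0.05, against 0.664% of all tested genes called below. Why this fit called so few genes in that direction was not tested. Mki67, with a mean of 0.107 CPM, was not called (log2 -6.55, SE 3.41, edgeR adjusted p = 0.19). A missing call therefore does not place a gene at or above 10 CPM. limma-voom, whose means are taken over log values, called 11 above (35.9% of all genes) and 10 below (33.3%). DESeq2 called 11 above (33.2%) and 2 below, E2f1 and Mki67 (11.0%), and left 6 of the 37 without an adjusted p. Against levels of 1, 5 and 20 CPM, edgeR called 23, 16 and 5 of the 37 above, where the shares of all tested genes were 59.1%, 45.3% and 25.5%. Without mice 1 and 2 it called 11 above (37.0% of all genes), and without mice 1 and 3 it called 10 (37.2%). Each p-value concerns the mean level over the mice against a fixed level. Its error term draws on all tested genes, so it is not the spread of that gene between these 4 mice alone.

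Cdk4 was the G1 gene with the highest level per length. Cdk4 (chr10:127063534-127067920, plus strand, GRCm38), a kinase of the cyclin D complexes, stood at 65.0, 113, 76.9 and 101 CPM, averaging 89.0 ± 22.0 CPM (SD, n = 4). Its log2 level relative to 10 CPM was 3.15 (SE 0.12, edgeR adjusted p = 1.5e-06). The values of the 4 libraries lay within a ratio of 1.74, the narrowest range among the 5 genes of its group. Cdk6, the related kinase, had 5.82, 38.9, 20.1 and 21.8 CPM, lowest in mouse 1, and was not called (log2 1.11, SE 0.38, adjusted p = 0.069). Cdk6 was called without mouse 1 (adjusted p = 0.00996), without mice 1 and 3 and with no filter on counts, its adjusted p running from 0.00996 to 0.337 over 14 alternatives. Set per kilobase of exon, Cdk4 exceeded Cdk6 in 4 of 4 mice. The log2 ratio was 5.28, 3.60, 3.95 and 4.23, on average 4.27 ± 0.72 (SD over 4 mice). An exact permutation test that flips signs, two-sided, gave p = 0.13, the smallest that 4 mice allow, and 0.16 adjusted over 10 pairs.

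The D-type cyclin genes did not share a pattern over the mice. Ccnd1, which codes for cyclin D1, was at 18.1, 53.7, 22.3 and 33.0 CPM, highest in mouse 2 (mean 31.8 ± 15.9 CPM; log2 1.67, SE 0.26, edgeR adjusted p = 0.0019). The cyclin D3 gene Ccnd3 stood at 7.54, 31.9, 48.3 and 28.1 CPM, lowest in mouse 1 (log2 1.53, SE 0.34, adjusted p = 0.012). This call was lost without mouse 3 (adjusted p = 0.10, and 0.0014 to 0.10 over 14 alternatives). Ccnd2, the gene of cyclin D2, had 0.204, 0.942, 18.9 and 18.6 CPM. Its libraries fell into 2 low and 2 high values, the largest being 93.0 times the smallest, and its mean of 9.67 ± 10.5 CPM did not differ from 10 CPM by the test (log2 -0.05, SE 0.99, adjusted p = 0.97). Mice 3 and 4, where Ccnd2 was high, were also those with the high transgene counts and the higher CSF-cN and ependymal marker sums given above. The 10 pan-neuronal markers (134, 90.3, 1124 and 393 CPM) and the 5 fibroblast markers (8.37, 0.107, 994 and 109 CPM) split the same way. Of these, 8, 9, 10 and 10 pan-neuronal markers were above 3 counts, but only 2, 1, 2 and 2 fibroblast markers. The fibroblast sum thus rests on few genes. Whether cells of any of these types had a part in the Ccnd2 level was not tested. Among all tested genes, 18.9% had both of these libraries above both others, and 7 of the 37 cell cycle genes did, namely Ccnd2, Ccne2, Cdt1, Mcm7, Rrm2, Aurka and Cdkn2c. This order sets no floor. Rrm2 had only 1 count in mouse 3, which is under the floor. For Ccne2 the 95% counting intervals of mice 2 and 4 overlapped (0.246 and 0.345 CPM).

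Per kilobase, Ccnd1 exceeded Ccnd2 in 4 of 4 mice, with log2 ratios of 5.02, 5.85, 1.19 and 1.78 (mean 3.46 ± 2.32, SD, n = 4; exact permutation p = 0.13, adjusted 0.16). It exceeded Ccnd3 in 3 of 4 mice, at 2.04, 1.62, -0.22 and 1.11 (mean 1.14 ± 0.98; exact permutation p = 0.25, adjusted 0.278). With 4 mice no pair can reach 0.05 in this test. Without division by exon length the mean ratio of Ccnd1 over Ccnd3 was 0.28.

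**Figure D2:**
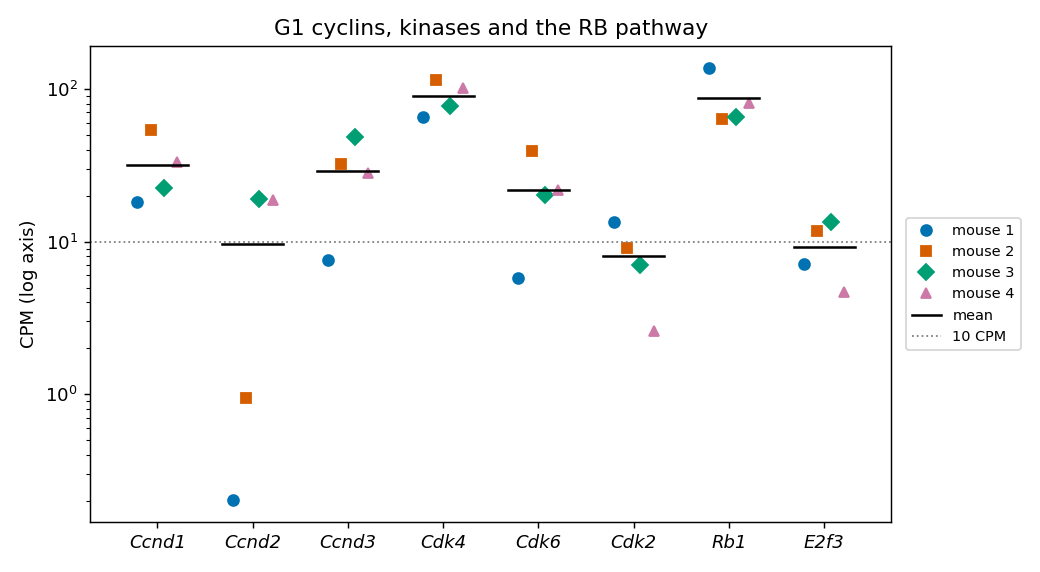
CPM on a log axis of 8 genes of G1 and the RB pathway, with 1 symbol per mouse, a bar at the mean of 4 mice and a dotted line at 10 CPM. Cdk4 and Rb1 lie above 60 CPM in every library, while Ccnd2 lies below 1 CPM in mice 1 and 2 and near 19 CPM in mice 3 and 4.

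Of the RB and E2F genes, Rb1 was high throughout and E2f1 nearly without counts. Rb1, the gene of the retinoblastoma protein, had 138, 63.5, 65.6 and 80.04 CPM, highest in mouse 1 (mean 86.7 ± 34.7 CPM; log2 3.12, SE 0.15, edgeR adjusted p = 4.9e-06). E2f3, an activating E2F gene, stood at 7.10, 11.8, 13.5 and 4.69 CPM without a call (adjusted p = 0.85). E2f1, the activator that is itself induced in late G1, had 3, 0, 2 and 25 counts. Only the library of mouse 4 was above the floor, at 0.279 CPM (95% Clopper-Pearson interval 0.180 to 0.411). The log2 ratio of Rb1 over E2f1 per kilobase was positive in 4 of 4 mice, with a mean of 6.82 ± 0.65 (exact permutation p = 0.13, adjusted 0.16). Its size rests on the pseudocount of 0.1 CPM per kilobase, since E2f1 was at or under the floor in 3 libraries, and was 3.84 to 9.17 over 8 alternatives.

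Genes of the G1/S transition were low. Cdk2, the kinase that partners cyclin E, stood at 13.5, 9.01, 7.07 and 2.61 CPM and was not called (log2 -0.31, SE 0.58, adjusted p = 0.66). Ccne2, a cyclin E gene, had 0, 0.246, 0.719 and 0.345 CPM, and Ccne1, the other one, no count.

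Among replication licensing genes, 5 of the 6 MCM helicase genes had counts in every library. Mcm3 stood at 25.6, 48.1, 53.0 and 45.7 CPM (log2 2.11, SE 0.18, edgeR adjusted p = 8.2e-05), and Mcm6 at 14.6, 29.2, 36.4 and 22.3 CPM (log2 1.36, SE 0.25, adjusted p = 0.0046). Both were lowest in mouse 1. Mcm4, by contrast, was highest there, at 61.8, 23.0, 23.4 and 16.05 CPM (log2 1.64, SE 0.30, adjusted p = 0.0045). Its call was lost without mice 1 and 2 (adjusted p = 0.10) and without mice 1 and 3 (0.14), with 0.0033 to 0.14 over 14 alternatives. Mcm2 stood apart in mouse 2, at 7.38, 32.4, 5.59 and 7.72 CPM, and was not called (adjusted p = 0.52). Mcm7, at 5.32, 24.1, 27.5 and 30.5 CPM, was lowest in mouse 1 and called only without that mouse, in both fits on 2 libraries and with no filter on counts (adjusted p = 0.061 over 4 mice, and 0.0041 to 0.26 over 14 alternatives). Mcm5 had 1, 708, 342 and 0 counts, hence 0.00926, 7.58, 3.96 and 0 CPM. Subunits of the same hexamer thus differed in which libraries held most of their RNA, and Mcm5 was at or under the floor in mice 1 and 4, where Mcm3, Mcm4 and Mcm6 were above 14 CPM. The log2 ratio of Mcm7 over Mcm2 per kilobase was 0.17, 0.22, 2.81 and 2.53, with a mean of 1.43 ± 1.43 (exact permutation p = 0.13, adjusted 0.16). Without division by exon length its mean was 0.84 (exact permutation p = 0.50).

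Of the factors that load the helicase, Cdc6 had no count and Cdt1 was steady, at 4.46, 5.52, 7.50 and 6.71 CPM (mean 6.05 ± 1.33 CPM; adjusted p = 0.36). Gmnn, the gene of geminin, which binds and inhibits CDT1, had 14.1, 0.931, 18.7 and 6.57 CPM, with its higher values in mice 1 and 3. The log2 ratio of Gmnn over Cdt1 per kilobase was 2.67, -1.34, 2.37 and 1.04, positive in 3 of 4 mice (mean 1.19 ± 1.83; exact permutation p = 0.375, adjusted 0.375). Its mean was 0.12 without division by exon length, 0.69 without mouse 1, 0.79 without mouse 3 and 2.03 without mouse 2.

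Pcna varied less between mice than nearly all genes at 10 CPM or more. Pcna (chr2:132249162-132253314, minus strand), the gene of the sliding clamp of DNA polymerases, which also serves in DNA repair, stood at 66.8, 66.4, 72.2 and 66.0 CPM, averaging 67.8 ± 2.93 CPM (SD, n = 4; log2 2.76, SE 0.10, edgeR adjusted p = 1.3e-06). Its SD of log2(CPM + 1) was 0.06, and 0.252% of the 9125 genes averaging 10 CPM or more had a smaller one. Rrm1, the large subunit gene of ribonucleotide reductase, which makes deoxynucleotides, was at 28.6, 52.4, 35.9 and 31.9 CPM (log2 1.90, SE 0.18, adjusted p = 1.5e-04). The S phase subunit gene Rrm2 had 0, 0, 1 and 446 counts. Only mouse 4 was above the floor, at 4.97 CPM (95% interval 4.52 to 5.45). Tyms, the thymidylate synthase gene, had 16.02, 15.1, 10.9 and 18.6 CPM and was not called (log2 0.60, SE 0.30, adjusted p = 0.18).

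Genes of G2 and mitosis were found in different libraries from gene to gene. Cdk1, the mitotic kinase gene, had 0, 244, 139 and 780 counts, or 0, 2.61, 1.61 and 8.69 CPM. Aurka, a kinase of the spindle poles, was likewise without counts in mouse 1 and stood at 1.22, 3.47 and 4.04 CPM in mice 2, 3 and 4. The genes of the partners of CDK1 were missing or found elsewhere: Ccnb1 and Ccnb2 had no count, and the cyclin A2 gene Ccna2 stood at 2.57, 0.0214, 0.116 and 0 CPM, with its main signal in mouse 1, where Cdk1 had none. Cdk4 exceeded Cdk1 per kilobase in 4 of 4 mice (mean log2 ratio 5.83 ± 1.46; exact permutation p = 0.13, adjusted 0.16), where the value of mouse 1 rests on the pseudocount.

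A group of 4 mitosis genes had all their counts in 1 library. Top2a, the topoisomerase that untangles chromosomes, had 444 counts in mouse 3 (5.15 CPM, 95% interval 4.68 to 5.65), and Cdc20, an activator of the anaphase-promoting complex, 413 in mouse 1 (3.82 CPM, 3.46 to 4.21). Aurkb, the kinase of the chromosomal passenger complex, had 162 counts in mouse 2 (1.73 CPM, 1.48 to 2.02). The proliferation marker gene Mki67 had 40 counts in mouse 2 (0.428 CPM, 0.306 to 0.583). Birc5, the passenger complex gene coding for survivin, had 58 counts in mouse 3 (0.672 CPM) and 1 in mouse 2. Both runs of a library held these counts, for example 244 and 200 for Top2a. The runs read the same amplified library, so this cannot show how many molecules the counts came from. Of the other mitosis genes, the centromeric histone gene Cenpa was in every library, at 4.08, 3.94, 0.580 and 0.813 CPM, and the kinetochore gene Cenpf at 1.20, 0.0107, 0.765 and 0 CPM. The checkpoint genes Bub1 and Bub1b and the spindle motor genes Kif11 and Kif23 had no count.

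No library held more than 5 of the 13 mitosis genes above 3 counts, the numbers being 3, 4, 5 and 2. Detection in 1 library only was found for 7 of the 37 tested cell cycle genes, against 14.1% of all tested genes. Of the 20 cell cycle genes with a mean under 10 CPM these were 7, while of all 9397 tested genes under 10 CPM 27.7% were above 3 counts in 1 library only and 29.5% in all 4. Low genes of any kind were thus often found in part of the libraries. Among all levels, 1 library stood far from the other 3, by Dixon's ratio, for 11 of the 37 genes and for 22.1% of all tested genes. These 11 include the 7 found in 1 library only, whose ratio is high by construction.

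**Figure D3:**
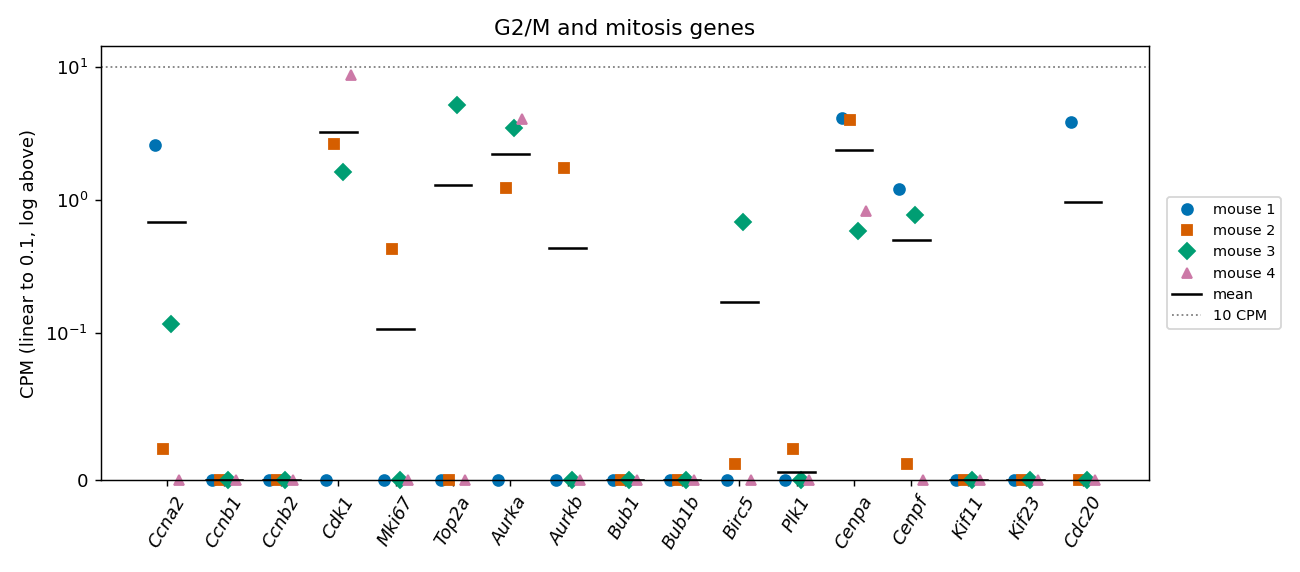
CPM of the 17 G2/M and mitosis genes, with 1 symbol per mouse, a bar at the mean of 4 mice and a dotted line at 10 CPM; the axis is linear up to 0.1 CPM and logarithmic above. Every value lies below 10 CPM, and Mki67, Top2a, Aurkb and Cdc20 each have 1 library above 0.

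The CDK inhibitor genes Cdkn1a and Cdkn1c had their high values in mice 1 and 3, and mice 2 and 4 were low. Cdkn1c (chr7:143458339-143461050, minus strand), the gene of the Cip/Kip inhibitor p57, had 141, 7.12, 130 and 2.83 CPM, with the largest value 49.9 times the smallest. Cdkn1a (chr17:29090976-29100727, plus strand), whose protein p21 is a Cip/Kip inhibitor and a target of p53, had 102, 10.9, 143 and 11.6 CPM, a largest value 13.2 times the smallest. Mice 1 and 3 were also those with the high oligodendrocyte marker sums, and in them all 10 of these markers were above 3 counts, as were 8 and 9 in mice 2 and 4. Mbp, their defining gene, stood at 1312, 31.3, 1690 and 217 CPM. The astrocyte sum (1253, 161, 1348 and 301 CPM) and the oligodendrocyte precursor sum (57.3, 1.26, 60.3 and 0.0891 CPM) ran the same way. Only 3, 1, 4 and 1 of the 7 precursor markers were above 3 counts, and 6, 6, 8 and 6 of the 10 astrocyte markers. Whether cells of any of these types had a part in the inhibitor levels was not tested. Across all tested genes, 18.1% had mice 1 and 3 both above mice 2 and 4, and 8 of the 37 cell cycle genes did: Gmnn, Mcm4, Pcna, Ccna2, Cenpf, Cdkn1a, Cdkn1c and Cdkn2d. Some of these differences were within counting error. The 95% counting intervals overlapped for Pcna in mice 1 and 2 (66.8 and 66.4 CPM). In mice 2 and 3 they overlapped for Mcm4 (23.0 and 23.4 CPM) and Ccna2 (0.0214 and 0.116 CPM).

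edgeR called Cdkn1a (log2 2.74, SE 0.45, adjusted p = 0.0026) and Cdkn1c (log2 2.82, SE 0.58, adjusted p = 0.0081) above 10 CPM. The Cdkn1c call was lost without mouse 1 (adjusted p = 0.087), without mouse 3 (0.081), without mice 1 and 2 (0.051) and under limma-voom (0.20), with a range of 0.0031 to 0.60 over 14 alternatives, and without mice 1 and 3 its level was under 10 CPM and not called (log2 -0.99). Cdkn1a lost its call without mice 1 and 3 (adjusted p = 0.81, and 0.0015 to 0.81 over 14 alternatives), where both libraries left stood just above 10 CPM. Cdkn1b, the gene of the third Cip/Kip inhibitor p27, did not share this pattern, at 6.49, 8.48, 6.94 and 3.06 CPM (log2 -0.68, SE 0.62, adjusted p = 0.39). Per kilobase, Cdkn1a exceeded Cdkn1b in 4 of 4 mice by log2 ratios of 4.24, 0.68, 4.64 and 2.12 (mean 2.92 ± 1.85; exact permutation p = 0.13, adjusted 0.16). Cdkn1b was below Cdkn1c in 4 of 4 mice, with log2 ratios of -5.51, -0.87, -5.30 and -0.94 (mean -3.16 ± 2.60; exact permutation p = 0.13, adjusted 0.16). This count rests on the exon lengths: in CPM, Cdkn1b was below Cdkn1c in mice 1 and 3 only, with a mean log2 ratio of -2.07 (exact permutation p = 0.50).

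The INK4 genes code for inhibitors of CDK4 and CDK6. Cdkn2d was at 22.2, 12.3, 40.8 and 16.4 CPM, above 10 CPM in every library (log2 1.20, SE 0.31, edgeR adjusted p = 0.021). This call was lost without mouse 1 (adjusted p = 0.061), without mouse 3 (0.20), without both of them (0.50) and under DESeq2 (0.092), with a range of 0.014 to 0.50 over 14 alternatives. Cdkn2c stood at 3.32, 1.66, 3.49 and 9.60 CPM, highest in mouse 4, and was not called (adjusted p = 0.31). Cdkn2a, the gene of p16 and ARF, a senescence marker, had no count. Cdkn2d exceeded Cdkn2c per kilobase in 4 of 4 mice (mean log2 ratio 3.15 ± 1.15; exact permutation p = 0.13, adjusted 0.16).

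**Figure D4:**
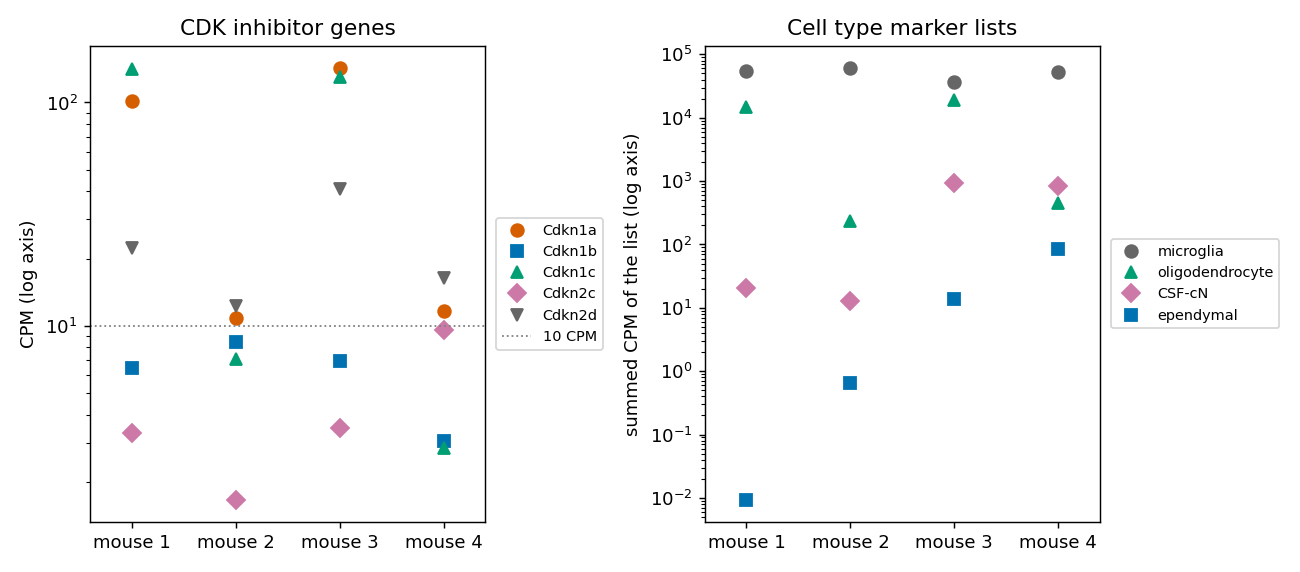
Left, CPM of 5 CDK inhibitor genes in each mouse on a log axis with a dotted line at 10 CPM; right, the summed CPM of 4 cell type marker lists in the same libraries on a log axis. Cdkn1a and Cdkn1c are above 100 CPM in mice 1 and 3, where the oligodendrocyte list sums to 14827 and 19055 CPM.

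Per kilobase of exon, the highest mean levels among the 47 genes were those of Cdkn1c (34.5 ± 37.1 CPM per kilobase, SD, n = 4), Pcna (28.3 ± 1.22), Cdk4 (27.4 ± 6.77), Cdkn1a (18.8 ± 18.7), Cdkn2d (14.6 ± 8.01), Rb1 (14.4 ± 5.77) and Mcm3 (11.5 ± 3.21). Neighbours in this order differed by less than the larger SD of each pair. Over the 37 tested genes, the median SD of log2(CPM + 1) was 0.81, against 0.58 over all 18522 tested genes, at a median mean level of 9.26 CPM against 9.52 CPM. This order turned round without mouse 1, where the medians were 0.501 in the cell cycle genes and 0.538 in all genes. Cdkn1c, Cdkn1a and Ccnd2 had the largest SDs, at 2.70, 1.93 and 2.15.

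**Figure D5:**
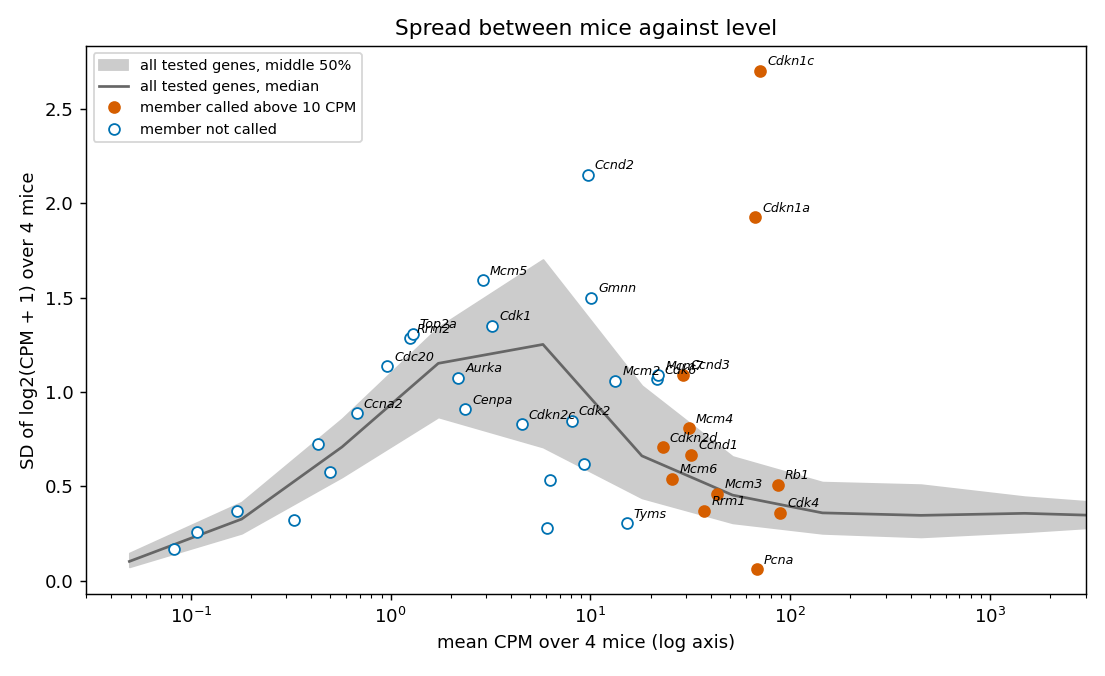
SD of log2(CPM + 1) over 4 mice against the mean CPM (log axis) for the 37 tested cell cycle genes, filled where called above 10 CPM; the grey line and band are the median and middle 50% of all tested genes by level. Cdkn1c and Cdkn1a lie far above the band, Ccnd2, at 2.15, less far above it, and Pcna, at 0.06, below it.

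Other genes of the cycle, 130 in 6 lists, were counted in the same way. Of the 112 tested, 52 were called above 10 CPM and 0 below by edgeR, against 36.7% and 0.664% of all tested genes. The ubiquitin ligase list had the largest share, with 15 of 18 called, among them the scaffold gene Cul1 (372, 244, 275 and 207 CPM) and Anapc5 (152, 140, 177 and 143 CPM), a subunit gene of the anaphase-promoting complex. Cyclins, CDKs and regulators outside the 47 had 11 of 20 called, led by Ccng2, a cyclin gene linked to cell cycle exit (154, 215, 144 and 202 CPM), Cdk9 (131, 181, 121 and 160 CPM), a kinase of transcription, and Ccni (114, 189, 109 and 138 CPM). Antiproliferative and checkpoint genes had 6 of 12 called, with Btg2 at 1187, 1257, 531 and 1170 CPM, Btg1 at 467, 568, 234 and 488 CPM and Trp53, the p53 gene, at 83.1, 105, 62.4 and 108 CPM. Btg1 and Btg2 were lowest in mouse 3.

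Of the further E2F, pocket protein and MuvB genes, 6 of 15 were called. They include the repressor gene E2f4 (31.5, 30.3, 37.9 and 30.6 CPM), its partner gene Tfdp1 (32.9, 17.3, 37.4 and 47.5 CPM) and Rbl2 (49.2, 11.96, 47.8 and 29.9 CPM), whose protein p130 holds cycle genes silent in resting cells. Origin and fork genes had 10 of 30 called, led by Orc4 (170, 82.4, 79.8 and 111 CPM), Orc5 (81.8, 58.1, 85.3 and 72.8 CPM) and the clamp loader gene Rfc2 (72.3, 65.9, 73.7 and 84.1 CPM). Mitosis genes outside the 47 had the smallest share, 4 of 17 called, and 10 of the 27 listed had no more than 3 counts in any library. Their top genes were the checkpoint gene Bub3 (180, 140, 241 and 126 CPM), the securin gene Pttg1 (58.6, 69.8, 85.3 and 59.9 CPM) and Anln. Anln, the gene of anillin, which scaffolds the cleavage furrow and also serves in myelin septin filaments, stood at 147, 1.26, 308 and 1.17 CPM. Its high libraries were again those of mice 1 and 3 (log2 3.52, SE 0.70, adjusted p = 0.0070).

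Exons of 15 of the 47 genes overlap exons of another gene in GENCODE M21, and 7 share over 10% of their exon bases. The libraries keep no strand, so reads in shared bases cannot be assigned by strand. The shared part is 30.7% for Cdkn1c, 23.4% for Ccnd1, 19.7% for Cdk4, 17.4% for Ccne2, 14.9% for Rb1, 12.6% for Mcm7 and 12.49% for Ccna2. Tspan31, which overlaps Cdk4, stood at 266, 250, 272 and 309 CPM. Lpar6, whose exons overlap those of Rb1, had 602, 873, 470 and 771 CPM. Exosc9, the partner of Ccna2, was at 112, 57.7, 79.2 and 47.8 CPM. The part of these partners in the levels was not tested.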

How the data were processed

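RNA-seq counts of 4 mice (1 library of 50 cells each) were used. Per the labels' protocols, complementary DNA was made with Smart-Seq v4 and 11 PCR cycles and libraries with Nextera XT, which keep neither strand nor molecular identifiers. The authors deposited whole-number counts for 42458 genes in 2 columns per mouse. Tools named in the submitters' processing notes are STAR, RSEM, FastQC, DESeq2 and Trim Galore, with mm10 as the genome build. Their versions, roles and settings are not given in the sources used. Column numbers were taken as the mouse numbers. The columns of a mouse were summed as runs of 1 library (mean chi-square 1.94 to 2.19 per gene, 1 being counting error). The authors also deposited log2 values, which equal log2 of summed counts over a size factor (1.18, 1.05, 0.936 and 0.983) plus 1, used only as an alternative.

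CPM were computed with TMM factors (0.935, 0.982, 1.04 and 1.05). Genes with at least 10 counts in total entered an intercept-only edgeR 4.0.16 quasi-likelihood fit (R 4.3.3), with the F test taken from the deviances because the tool's own function refuses 1 column, Benjamini-Hochberg adjustment and a threshold of 0.05. The fit was also run on simulated counts, with genes set to fixed levels and their spread taken from edgeR's own trend. That run does not cover sparse genes with all counts in 1 library, and no outcome of it is used here. limma 3.58.1, DESeq2 1.42.0, other normalizations, filters, levels and libraries left out were alternatives. Ratios of 10 gene pairs used CPM per kilobase of GENCODE M21 exon (GRCm38) plus 0.1 and an exact sign-flip test over 16 patterns. All 47 members are named, and the 3 highest genes of each of 6 other lists. The members, lists and the level of 10 CPM were chosen with earlier results of these data known. Rows named as copies of members (such as Cdkn1a_1) held at most 14 counts.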

Additional observations from a re-analysis of the deposited data

Results flagged for a closer look

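For 11 of the 37 tested genes, 1 library stood far from the other 3, its gap to the nearest of them exceeding the 95% critical value of Dixon's ratio to the range. Chance flags about 1 in 20 groups of normal values, and 22.1% of all tested genes met this criterion. The ratio was taken on CPM, so a gene with nearly all its counts in 1 library has a ratio near 1 by construction. This holds for E2f1, Rrm2, Mki67, Top2a, Aurkb, Birc5 and Cdc20, the 7 genes already given as found in 1 library only. For them the normal reference does not apply, and the flag adds nothing further. The library apart held 32.4 CPM of Mcm2, 1.73 CPM of Aurkb and 0.428 CPM of Mki67 in mouse 2. In mouse 1 it held 61.8 CPM of Mcm4, 2.57 CPM of Ccna2 and 3.82 CPM of Cdc20. In mouse 3 it held 72.2 CPM of Pcna, 5.15 CPM of Top2a and 0.672 CPM of Birc5, and in mouse 4 0.279 CPM of E2f1 and 4.97 CPM of Rrm2. For Pcna the range was narrow, the largest value being 1.09 times the smallest. Of the summed levels by role, the RB and E2F genes stood apart in mouse 1 at 145 CPM and the G2/M cyclin and kinase genes in mouse 4 at 8.69 CPM.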

How the results depend on the processing

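The count of 12 genes called above 10 CPM was 5 when tested against 20 CPM and 23 against 1 CPM, and stayed within 1.5 times under the other alternatives, with 9 to 12 when 1 mouse was left out. All 12 genes were called with DESeq2 size factors. Among the alternatives chosen after the data were seen, 11 were called without mice 1 and 2, of which 10 were among the 12, and 10 without mice 1 and 3, of which 8 were. The count below 10 CPM, 0 in edgeR, was 10 with limma-voom, 2 with DESeq2 and 1 with no filter on counts; the cause was not tested. The 52 other cell cycle genes became 84 against 1 CPM. The median SD of 0.81 was 1.15 with a pseudocount of 0.1 CPM and 1.18 in the deposited log2 values, and 0.501 to 0.838 when 1 mouse was left out. The median of all tested genes, 0.58, was 0.865 and 1.10 under these 2 choices, and 0.496 to 0.543 when 1 mouse was left out. Of 495 levels of single genes under alternatives, 451 kept direction and side of the threshold, 12 lost a call, 19 gained one and 13 turned sign, all but that of Cdkn1c (-0.99 without mice 1 and 3) for genes near 10 CPM that were not called in those fits. These were Ccnd2 (0.0104 with library totals, 0.97 without mice 1 and 2, -0.62 to 0.39 when 1 mouse was left out), Gmnn (-0.64 with limma-voom, -1.39 without mice 1 and 3, -0.49 to 0.40), Mcm2 (-0.53 without mice 1 and 2, -0.53 to 0.64) and E2f3 (-0.37 to 0.0835). No mean pair ratio turned sign in 8 alternatives each, but sizes moved: 0.28 to 1.59 for Ccnd1 over Ccnd3, 2.02 to 4.21 for Ccnd1 over Ccnd2, 2.28 to 4.49 for Cdk4 over Cdk6, 4.17 to 6.81 for Cdk4 over Cdk1, 2.35 to 3.67 for Cdkn1a over Cdkn1b, -3.92 to -2.07 for Cdkn1b over Cdkn1c, 2.45 to 3.697 for Cdkn2d over Cdkn2c, 0.12 to 2.03 for Gmnn over Cdt1 and 0.84 to 1.85 for Mcm7 over Mcm2. No paired comparison of conditions was possible because the 4 libraries form a single group, while the gene pair ratios were taken within each mouse. Genes under about 0.03 CPM are below what these depths can show.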
